A study of Mus musculus with 21 samples.

Results

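Wild-type (WT) mouse mammary organoids carrying active neuT were compared between day 28 and day 14 after the oncogene was switched on. The comparison used all 6 original WT libraries of these days, 3 at day 14 and 3 at day 28, out of 21 libraries in the series. The remaining libraries were WT organoids at day 0 (3 libraries), organoids of genotype Mre11 ATLD1/ATLD1 (called ATLD here) at day 0, day 14 and day 28 (3 libraries each), and 1 resequenced run of WT replicate 1 at each of the 3 days. The organoids are primary cultures of mammary epithelia, and the libraries are stranded poly(A) RNA sequencing libraries counted per gene. At both compared days neuT was active, so the comparison shows change between an earlier and a later time under the oncogene. The labels used here give no promoter or agent for the switching on of neuT, no age or strain, and no origin of the replicates, such as an animal or a culture each, so p-values measure only the spread between these libraries, which may be technical. No day 28 culture without neuT was analysed here, and time in culture and time under neuT cannot be told apart.

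The mammary epithelium has an outer layer of basal, contractile myoepithelial cells and an inner layer of luminal cells, among them progenitors of the milk-producing cells and cells that sense steroid hormones. neuT is an activated form of ErbB2, a receptor tyrosine kinase that signals through the ERK and PI3K cascades. Immediate early genes such as Fos and the Egr family are switched on within minutes by growth factors, serum, stretch or handling, largely through serum response factor and CREB. Mre11 is a nuclease of the complex that detects DNA double-strand breaks, and ATLD1 is an allele with reduced function.

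Total counts ranged from 40260774 to 50879106 in the day 14 libraries and from 32548362 to 43663874 in the day 28 libraries. Within each day the libraries did not form 1 cluster. WT day 14 replicates 1 and 3 and WT day 28 replicate 2 had fewer reads on GC-rich genes, with log2 counts falling by 0.56, 0.55 and 0.42 for each 10% of transcript GC content, whereas the slopes of the other 3 libraries lay between 0.13 and 0.18. Over 11624 genes, log2 ratios between libraries had an SD of 0.09 for day 14 replicates 1 and 3 but of 0.55 for either of them with replicate 2. On day 28 it was 0.11 between replicates 1 and 3, and 0.41 and 0.43 when replicate 2 was set against each of them. The resequenced runs of WT replicate 1 had slopes of 0.26 at day 14 and 0.22 at day 28, and the SD between the original and the resequenced run was 0.60 at day 14 and 0.14 at day 28. Because 2 of the 3 day 14 libraries but 1 of the 3 day 28 libraries carried this low-GC trend, each result is given from the 18 original libraries and then, where it differs, from a fit with a term for the trend and from a fit in which the resequenced runs stand in for the original WT replicate 1, which leaves 1 library with the trend on each day.

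**Figure D1:**
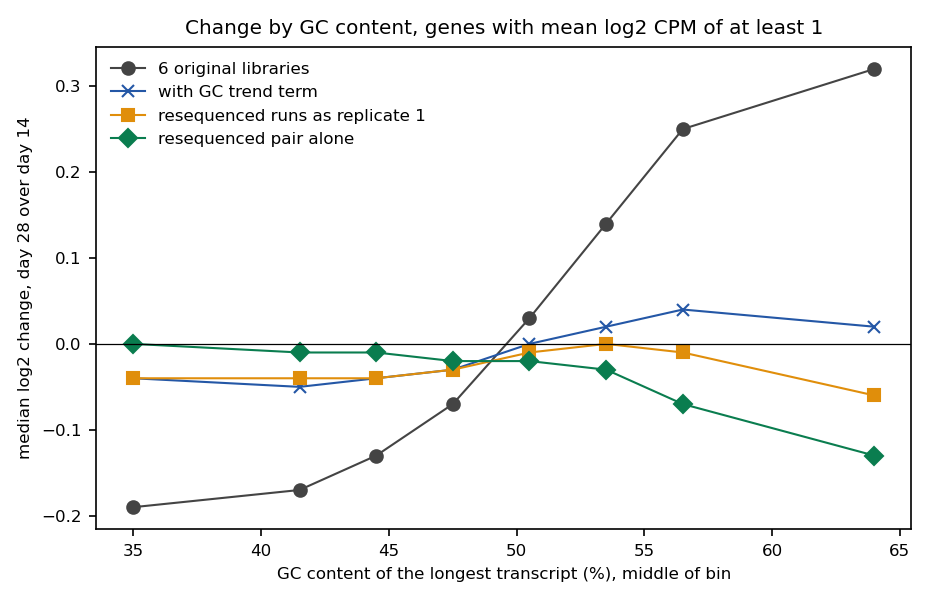
Median log2 change from day 14 to day 28 (y axis) by GC content of the longest transcript (x axis, percent), for genes whose mean log2 CPM reached 1. With the 6 original libraries the median ran from -0.19 in the bin of 30 to 40% GC to 0.32 in the bin of 58 to 70%, while with the trend term it stayed between -0.05 and 0.04 and with the resequenced runs as replicate 1 between -0.06 and 0.00.

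The levels of epithelial genes fitted the epithelial part of the label, and the genes given here do not tell mammary from other epithelium. Levels are given as CPM, read counts relative to each library's total after scaling by the trimmed mean of M values. Epcam, a surface protein of epithelial cells, lay between 562 and 689 CPM in the 6 libraries, and Cdh1, which encodes E-cadherin, lay between 694 and 823 CPM. The basal keratin Krt14 was at 1813, 5196 and 1731 CPM in day 14 replicates 1 to 3 and at 4462, 2081 and 4437 CPM on day 28, and it followed the GC trend of the libraries (5072 and 5034 CPM in the resequenced runs of day 14 and day 28). The leukocyte gene Ptprc reached at most 0.16 CPM and the adipocyte gene Adipoq had no count in any of these libraries. Of the macrophage markers, however, Cd163 was at 21.6 to 24.8 CPM and Cd68 at 1.87 to 2.68 CPM.

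Few genes separated the days. Of 18684 genes tested with edgeR, 169 passed an adjusted p of 0.05 (0.905%), 99 of them higher on day 28 (0.530%) and 70 lower (0.375%), and 71 changed at least 2-fold (47 higher, 24 lower). At an unadjusted p under 0.05, 1851 genes differed. For all 169 called genes the 3 day 28 libraries lay outside the range of the 3 day 14 libraries, which held for 12% of all genes tested. In the pair of resequenced runs, 167 of the 169 and 10082 of the 18684 genes tested had the direction of the 6 libraries. These runs repeat WT replicate 1 of each day, which is among the 6 libraries, so the count is no independent check. With the trend term 216 genes were called (1.16%), 150 of them shared with the 169, and with the resequenced runs 94 of 18607 were called (0.505%), 84 of them shared. In all 3 fits, 83 genes were called, 49 higher and 34 lower. The resequenced runs together with the trend term gave 245 calls (1.32%), 139 of them shared, and there 44 of the 46 named calls were kept, all but Tagln and Pgk1. These calls rest on the spread pooled over all 6 groups of the series: the 6 compared libraries fitted alone gave 0 calls with edgeR (1114 genes at an unadjusted p under 0.05). Among the 3 libraries without the trend there was 1 of day 14, replicate 2, and without that library the count was 3817.

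**Figure D2:**
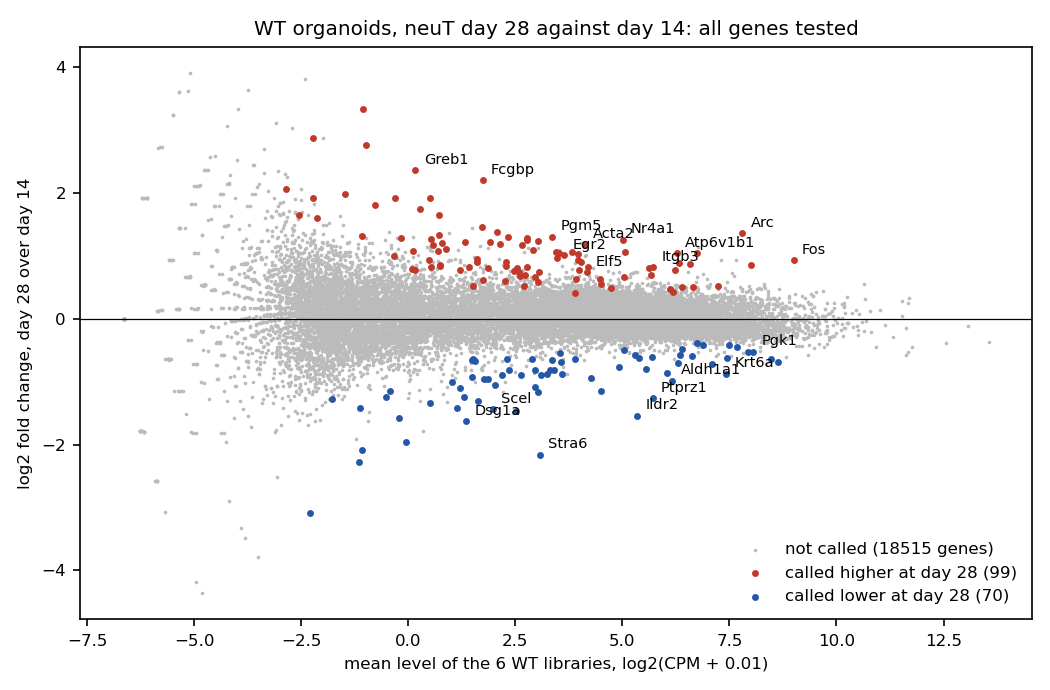
Log2 fold change from day 14 to day 28 (y axis) against the mean level of the 6 original WT libraries (x axis, log2 of CPM plus 0.01), 1 point a gene tested. The 99 genes called higher (red) and the 70 called lower (blue) lie at low and high levels alike, among the genes that were not called.

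Of 17 tested genes of the contractile apparatus of myoepithelial cells, 5 rose from day 14 to day 28, none fell and 12 did not pass the test, and the median log2 change was 0.64, beside 0.01 over all genes tested. Abundant members without a call included Tpm1 (tropomyosin, -0.02) and Cald1 (caldesmon, -0.10). Acta2 (ENSMUSG00000035783, chr19:34241090-34255590, minus strand, mm10), which encodes smooth muscle actin, was at 8.36, 13.1 and 10.5 CPM in day 14 replicates 1 to 3 and at 26.5, 20.3 and 25.3 CPM on day 28. Every day 28 library was above every day 14 library, and the resequenced runs gave 12.2 and 29.9 CPM. Acta2 rose by 1.18 ± 0.15 on the log2 scale (SE, adjusted p = 0.000554). It remained far under its day 0 level of 272, 297 and 278 CPM. Pdlim3, an actinin-binding protein of actin fibres, rose by 1.06 ± 0.14 from 6.55, 7.67 and 6.97 CPM to 16.8, 12.8 and 14.7 CPM. Mylk, the kinase that phosphorylates myosin light chain, rose by 0.77 ± 0.12 from 11.2, 11.6 and 12.2 CPM to 21.8, 17.3 and 20.4 CPM, around its day 0 range of 19.7 to 20.6 CPM. Oxtr, the oxytocin receptor through which myoepithelium contracts at milk let-down, rose by 0.70 ± 0.10 from 38.4, 36.1 and 42.7 CPM to 63.5, 64.2 and 62.8 CPM. Tagln, which encodes transgelin, rose by 0.85 ± 0.19 but stayed low, from 0.86 to 1.56 CPM on day 14 to 1.97 to 2.21 CPM on day 28.

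With the resequenced runs 3 of the list were called, namely Acta2, Pdlim3 and Oxtr (adjusted p = 0.000904, 0.0033 and 0.00622), whereas Mylk (0.06, and 0.012 once the trend term was added) and Tagln (0.343, and 0.153) were not, and Tagln was not called with the trend term (0.07). The median of the list was 0.43 with the trend term and 0.31 with the resequenced runs. In bulk samples more cells of a type and more RNA per cell cannot be told apart. The 16 basal epithelial markers, which include the basal keratins, held no call in any of the 3 fits, with a median of 0.22 that was 0.02 with the trend term and -0.04 with the resequenced runs. Krt5 was at 4271 and 4049 CPM in the resequenced runs of day 14 and day 28. The matrix protein Sparc, a member of the same list, was at 269, 263 and 272 CPM on day 14 and at 403, 343 and 385 CPM on day 28, and its change of 0.49 ± 0.12 had an adjusted p of 0.0705.

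Of the 12 largest rises among the named genes, that of Pgm5 had the smallest p. Pgm5 (ENSMUSG00000041731, chr19:24683016-24861855), whose product aciculin sits at adherens junctions and focal adhesions of muscle, was at 6.15, 5.36 and 6.13 CPM on day 14 and at 14.8, 14.9 and 14.1 CPM on day 28. The replicates of each day differed little, whether or not they carried the GC trend, and the resequenced runs gave 6.49 and 15.3 CPM. Pgm5 rose by 1.31 ± 0.10 (adjusted p = 7.16e-06). Tmem252, a small membrane protein gene that lies beside Pgm5 on the same chromosome (chr19:24674008-24682233), rose by 1.29 ± 0.17 from 4.55, 3.12 and 4.15 CPM to 9.36, 11.8 and 7.75 CPM. Mmp2, a gelatinase that cuts basement membrane collagen, rose by 0.82 ± 0.15 from 11.6, 14.0 and 13.9 CPM to 27.1, 19.9 and 22.9 CPM, and it was the 1 call among 13 tested genes of epithelial-mesenchymal transition.

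**Figure D3:**
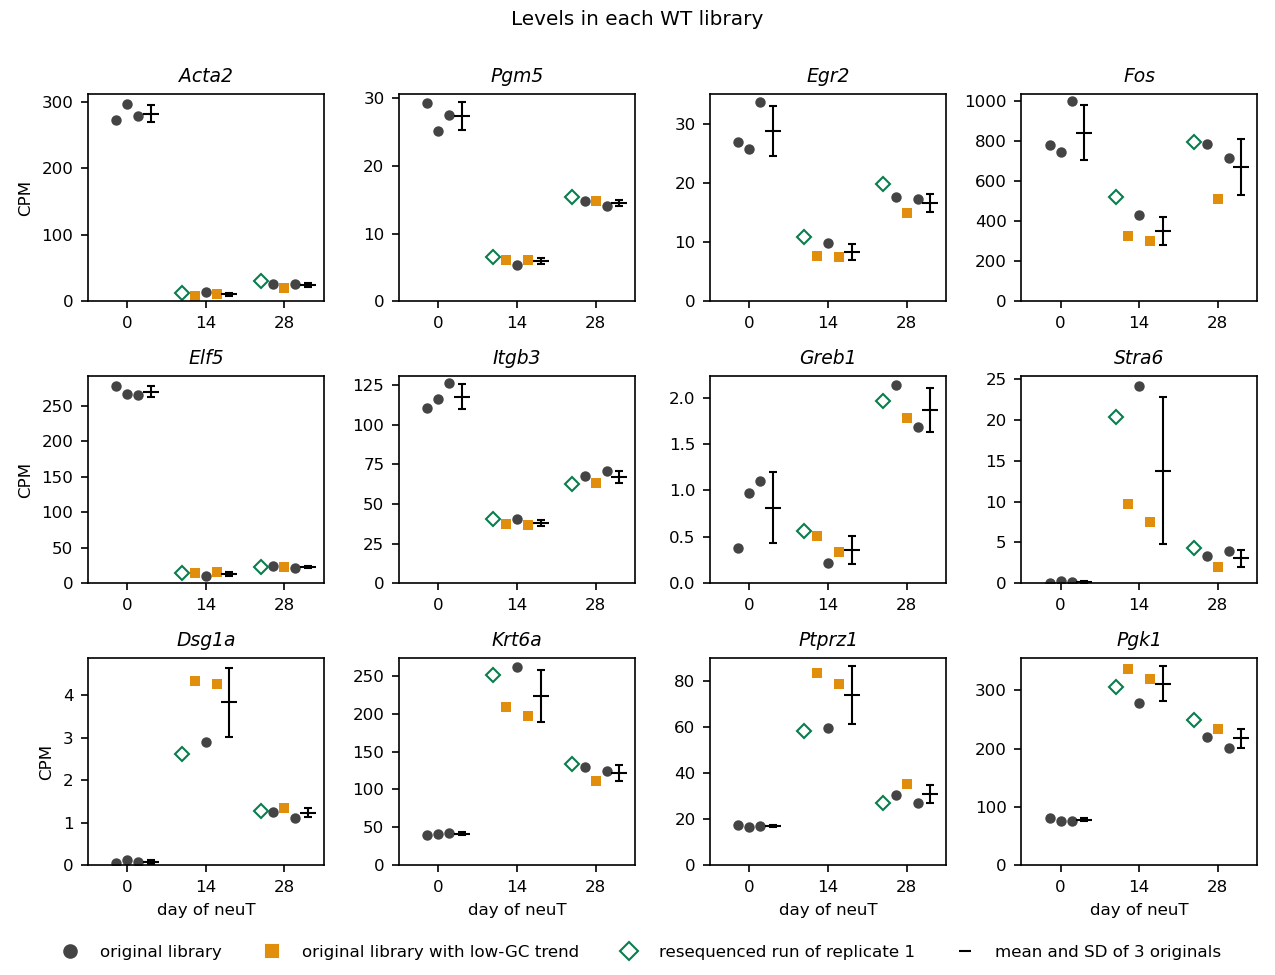
CPM (y axis) of 12 genes in each WT library by day (x axis), with the 3 originals as filled points, those carrying the low-GC trend as orange squares, the resequenced run of replicate 1 as an open diamond, and the mean and SD of the originals as a bar. Acta2, Elf5 and Itgb3 rose between day 14 and day 28 yet stayed under day 0, whereas Stra6, Dsg1a, Krt6a, Ptprz1 and Pgk1 fell yet stayed above day 0.

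Among luminal genes, 4 of 15 tested progenitor markers rose and none fell, with a median of 0.35. With the trend term 6 were called, all higher, with a median of 0.40, and with the resequenced runs 2 were, with a median of 0.37. Elf5, the transcription factor of the alveolar lineage, was at 14.2, 10.4 and 15.9 CPM on day 14 and at 24.4, 22.2 and 21.2 CPM on day 28, so that the days did not overlap. It rose by 0.74 ± 0.13 (adjusted p = 0.00815), beside 265 to 279 CPM on day 0. Itgb3, an integrin subunit that marks luminal progenitors, rose by 0.82 ± 0.12 (adjusted p = 0.00252) from 37.1, 40.5 and 36.5 CPM to 67.3, 63.2 and 70.9 CPM. Both genes were called in all 3 fits. Hey1, a repressor induced by Notch, rose by 0.50 ± 0.10, and Aldh1a3, a retinaldehyde dehydrogenase, rose by 0.43 ± 0.09, and neither was called with the resequenced runs alone (adjusted p = 0.0679 and 0.143), though both were when the trend term was added (0.00954 and 0.0297). Further members of the list did not pass the test, among them Kit, the receptor of stem cell factor, at 27.1 to 35.5 CPM on day 14 and 33.8 to 38.0 CPM on day 28, and the iron-binding milk protein gene Ltf, at 25.4 to 27.4 and 22.8 to 28.3 CPM. Lcn2, which encodes the iron-sequestering lipocalin of luminal cells, was at 132 to 155 CPM on day 14 and 145 to 208 CPM on day 28, against 2672 to 3246 CPM on day 0.

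Of 14 luminal keratins and identity genes 1 rose and 1 fell. Muc1, the membrane mucin of the luminal surface, rose by 0.90 ± 0.18 from 3.60, 3.07 and 3.45 CPM to 6.13, 5.26 and 7.45 CPM. Ehf, an ETS factor of simple epithelia, fell by 0.69 ± 0.14 on the log2 scale, from 562, 367 and 554 CPM to 300, 345 and 274 CPM. In every day 14 library Ehf was under its day 0 range of 621 to 714 CPM. Replicate 2 of day 14, which did not carry the GC trend, lay close to day 28. Neither gene was called with the resequenced runs alone (adjusted p = 0.0607 for Muc1 and 0.123 for Ehf), and both were with the trend term added (0.0203 and 0.00246). Krt8 and Krt18, the keratin pair of luminal cells, differed by 0.25 ± 0.28 and 0.22 ± 0.16, and in the resequenced runs Krt8 was at 380 CPM on day 14 and 379 CPM on day 28.

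Hormone-sensing luminal genes gave 1 call among 13 tested, and the receptors Esr1 and Pgr differed by -0.00 and 0.02. That call was Greb1, a target and cofactor of the oestrogen receptor, at 0.51, 0.21 and 0.34 CPM on day 14 and 2.14, 1.78 and 1.69 CPM on day 28. Greb1 rose by 2.36 ± 0.34 (adjusted p = 0.00211), and it was called in all 3 fits. On day 0 it was at 0.38, 0.97 and 1.10 CPM, below each day 28 library. By value 9 of the 13 genes were below 0 and 4 above. Ly6a (-0.72, adjusted p = 0.053) and Prom1 (-0.46, adjusted p = 0.124) had no call. In a fit with an offset for GC content both were called lower (adjusted p = 0.0321 and 0.0356).

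The immediate early genes were the list with the most calls. Of 24 tested, 7 rose and none fell, with a median of 0.40, which was 0.20 with the trend term and 0.08 with the resequenced runs. By value 18 were above 0 and 6 below, the lowest being Nr4a2 (-0.58 ± 0.14, adjusted p = 0.0725). In a fit with an offset for GC content Nr4a2 was called lower (-0.53, adjusted p = 0.0296), while 7 members were called higher. The promoters of 3 of the genes that rose are shown because the list is known for shared control elements, with the bases before the transcription start taken from RefSeq (GRCm38.p6) and cut short before the first base of any GENCODE exon. Capitals mark an exact match to a CArG box or to a cyclic AMP response element (CRE, letters TGACGTCA). The CArG box, the site bound by serum response factor, was searched as CCWWWWWWGG, with W for A or T. Variants of either site, and bases further upstream, were not searched.
Egr2, chr10:67537619-67537868, plus strand, CArG box at -72 to -63: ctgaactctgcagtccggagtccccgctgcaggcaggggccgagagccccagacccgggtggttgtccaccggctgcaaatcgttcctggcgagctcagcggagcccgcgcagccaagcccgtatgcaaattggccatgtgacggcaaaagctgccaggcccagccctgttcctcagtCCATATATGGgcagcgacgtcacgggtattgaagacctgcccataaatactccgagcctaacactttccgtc
Dusp1, chr17:26508520-26508722, minus strand, CRE at -143 to -136: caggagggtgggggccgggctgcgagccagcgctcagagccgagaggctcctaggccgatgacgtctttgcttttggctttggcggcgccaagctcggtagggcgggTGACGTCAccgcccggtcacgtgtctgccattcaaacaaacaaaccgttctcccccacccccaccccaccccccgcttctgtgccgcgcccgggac
Fos, chr12:85473640-85473889, plus strand, no match to either motif in this window: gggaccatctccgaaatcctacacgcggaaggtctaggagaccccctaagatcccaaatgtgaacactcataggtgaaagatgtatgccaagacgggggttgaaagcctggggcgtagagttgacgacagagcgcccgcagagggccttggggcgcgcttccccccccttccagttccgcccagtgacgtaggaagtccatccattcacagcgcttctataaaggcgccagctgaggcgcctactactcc

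Searched on both strands over 250 bases, the CArG box was present in 1.47% and the CRE in 1.55% of 32851 promoter windows, and the motifs do not overlap in these sequences. Of the 7 genes that rose, 6 had a window, of which Egr2 and Zfp36 (at -58 to -49) held a CArG box and Dusp1 a CRE. Of the 24 tested, 18 had a window, with a CArG box in 2 and a CRE in 2. A gene can have several windows, 10 in all for the genes that rose and 22 for those tested. These counts of genes are therefore not in the same unit as the shares of windows. Egr2 had several windows, not all with a CArG box, and the window shown was picked among them. A match is a run of letters and no evidence of binding. Among the 5 contractile genes that rose, 4 had a window, and Pdlim3 held a CRE at -48 to -41. None held an exact match to the CArG letters, and variants of the site, in Acta2 or the others, were not searched.
Pdlim3, chr8:45885237-45885460, plus strand, CRE in capitals: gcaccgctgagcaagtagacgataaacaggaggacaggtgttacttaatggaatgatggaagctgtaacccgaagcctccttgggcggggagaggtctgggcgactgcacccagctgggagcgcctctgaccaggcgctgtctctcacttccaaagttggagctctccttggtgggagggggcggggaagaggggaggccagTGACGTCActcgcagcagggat

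Egr2, a zinc finger factor, was at 7.65, 9.79 and 7.37 CPM on day 14 and at 17.7, 14.9 and 17.3 CPM on day 28, and the resequenced runs gave 10.9 and 19.8 CPM. It rose by 1.01 ± 0.13 (adjusted p = 0.000793), with no overlap between days, and remained under its day 0 level of 25.7 to 33.6 CPM. Fos, the AP-1 subunit, rose by 0.93 ± 0.18 (adjusted p = 0.0187) from 327, 431 and 300 CPM to 784, 513 and 717 CPM. The lowest value of each day was in a library with the GC trend, and day 28 replicates 1 and 3 lay within or just under the day 0 range that starts at 745 CPM. Dusp1, a phosphatase that inactivates MAP kinases, rose by 0.89 ± 0.14 from 54.7, 60.1 and 52.6 CPM to 116, 86.5 and 107 CPM, above its day 0 range of 38.5 to 50.6 CPM. Atf3, a stress-induced ATF/CREB family factor, rose by 0.83 ± 0.15 from 5.47, 5.05 and 4.17 CPM to 8.53, 8.64 and 8.89 CPM.

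Arc, best known as a synaptic plasticity gene and a target of serum response factor, was at 97.6, 185 and 91.3 CPM on day 14 and at 417, 199 and 342 CPM on day 28. Its groups barely separated, with replicate 2 of day 14 at 185 CPM and replicate 2 of day 28 at 199 CPM, and the resequenced runs gave 244 and 423 CPM. Arc rose by 1.36 ± 0.26 (adjusted p = 0.0165). The nuclear receptor gene Nr4a1 rose by 1.26 ± 0.25 and Zfp36, whose product destabilises AU-rich messenger RNAs, rose by 0.87 ± 0.17. With the resequenced runs Egr2, Dusp1 and Atf3 were called (adjusted p = 0.0083, 0.0404 and 0.00467), but Fos (0.234), Arc (0.319), Nr4a1 (0.276) and Zfp36 (0.32) were not. Once the trend term was added to those runs, all 4 were called, with adjusted p-values of 0.0129, 0.00132, 0.0186 and 0.0355. Some other members followed the GC trend of the libraries more than the day. Junb was at 25.7, 157 and 24.6 CPM on day 14 and at 167, 37.1 and 143 CPM on day 28, while the resequenced runs gave 218 and 211 CPM. Egr1 differed by 0.19 ± 0.14 and was at 991 and 936 CPM in the resequenced runs.

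The lists of ERBB genes, ERK feedback, YAP and TGF-beta response and the Notch pathway held few calls. The receptor gene Erbb2 itself was at 69.0, 139 and 72.7 CPM on day 14 and at 128, 75.4 and 133 CPM on day 28, values that followed the GC trend, and its change of 0.26 ± 0.26 did not pass the test (-0.00 with the trend term). Whether reads of the neuT transgene were counted on Erbb2 is not given in the sources used here. None of 14 ERBB receptors and ligands and none of 15 ERK feedback genes was called, with medians of -0.03 and 0.07. Dusp5, an ERK phosphatase, had the smallest p of the feedback genes, with a change of 0.52 ± 0.14 from 7.52 to 9.79 CPM on day 14 to 10.6 to 13.9 CPM on day 28. Of 18 genes of the YAP and TGF-beta response, Ccn1, a secreted matricellular protein, was the 1 that rose (0.51 ± 0.11, adjusted p = 0.0435, 0.292 with the resequenced runs, and 0.0321 with these and the trend term). Of 14 tested Notch pathway genes, the target genes Hey1 and Hey2 rose and none fell. Hey2 rose by 1.08 ± 0.17 from 0.94, 0.99 and 1.18 CPM to 2.60, 2.44 and 1.56 CPM, and the list's median of 0.32 was 0.01 with the trend term and -0.05 with the resequenced runs.

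**Figure D4:**
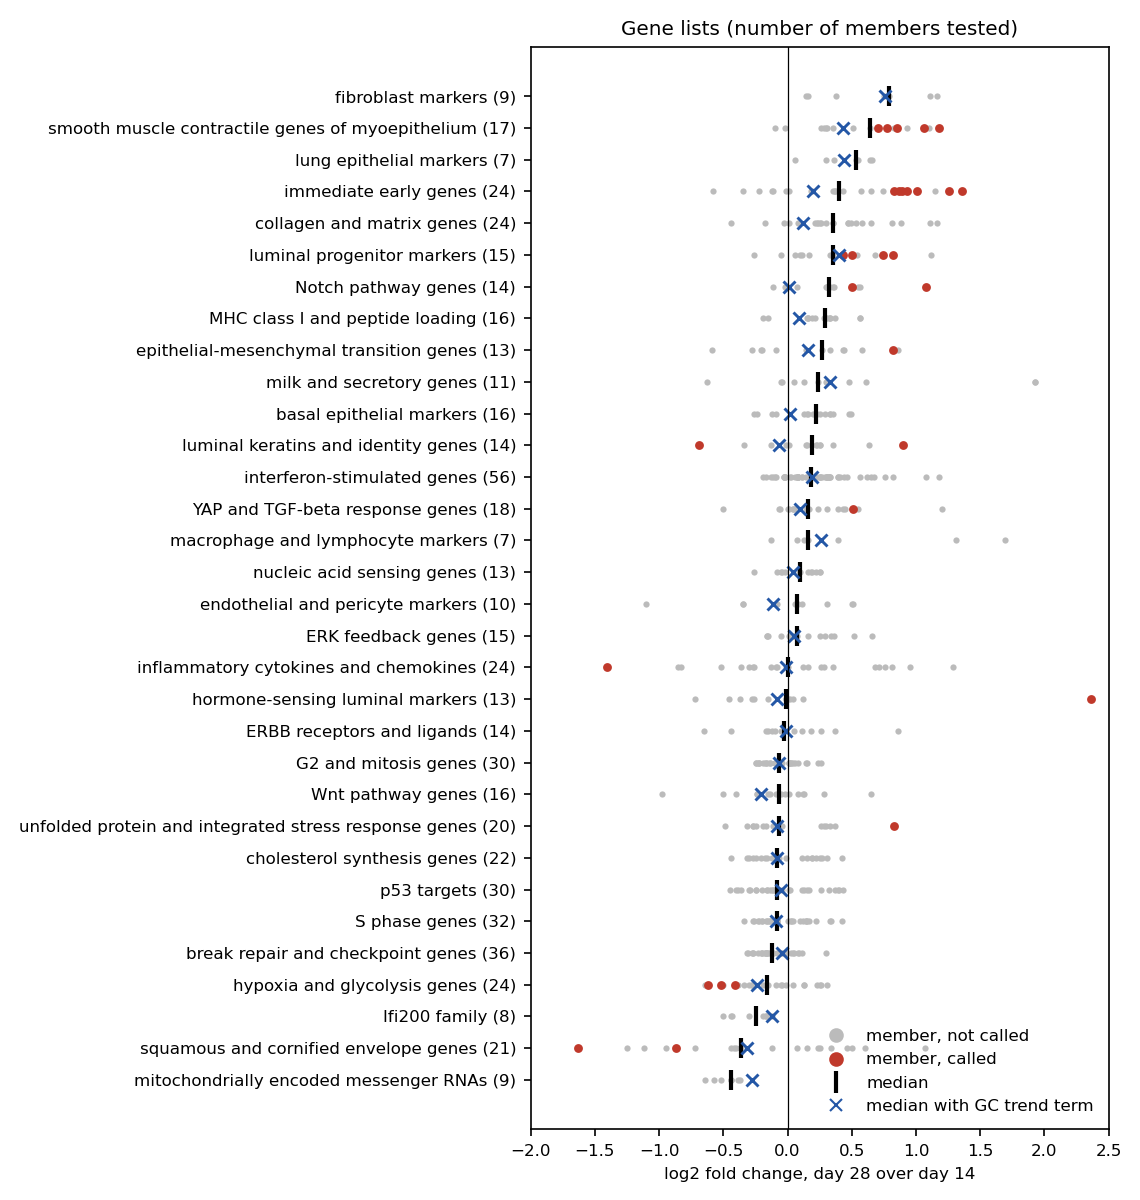
Log2 fold change from day 14 to day 28 (x axis) of the tested members of each list (y axis). Called members are in red, the list's median is a black bar and its median with the GC trend term a blue cross. Members beyond -2 or 2.5 and the adipocyte list, of which only Pparg was tested, are not drawn. The contractile genes (median 0.64, 5 calls) and immediate early genes (0.40, 7 calls) lie towards higher values, and the squamous genes (-0.36, 2 calls) and the mitochondrially encoded genes (-0.44, no call) towards lower ones.

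Among the genes that fell were several of stratified, cornifying epithelium. Stra6 (ENSMUSG00000032327, chr9:58063788-58153996), the cell surface receptor for retinol-binding protein, had the largest fall among the named genes. It was at 9.72, 24.2 and 7.54 CPM on day 14 and at 3.28, 1.95 and 3.99 CPM on day 28. The days did not overlap, replicate 2 of day 14 stood above the other replicates of its day, and the resequenced runs gave 20.4 and 4.34 CPM. Stra6 fell by 2.16 ± 0.39 on the log2 scale (adjusted p = 0.0112), from a gene that was nearly silent on day 0 (0.06 to 0.24 CPM).

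Dsg1a, a desmosomal cadherin of the upper epidermis, fell by 1.63 ± 0.22 on the log2 scale (adjusted p = 0.00273), from 4.33, 2.90 and 4.28 CPM to 1.26, 1.34 and 1.12 CPM. Krt6a, a keratin of activated and hyperproliferative keratinocytes, fell by 0.87 ± 0.14 (adjusted p = 0.00368), from 209, 262 and 198 CPM to 130, 111 and 125 CPM. Reads of Krt6a can be shared with its near copy Krt6b, and reads of Dsg1a with its own paralogs, so that the split between copies is uncertain. Scel, which encodes the cornified envelope precursor sciellin, fell by 1.44 ± 0.23, from 6.40, 4.67 and 6.05 CPM to 2.09, 2.55 and 1.71 CPM, and Cers3, a ceramide synthase of the skin barrier, fell by 1.10 ± 0.19. Each of these 4 genes was lower in all 3 day 28 libraries than in any day 14 library, and each was called in all 3 fits. Of the 21 tested squamous and cornified envelope genes 2 fell and none rose, with a median of -0.36. The median was -0.32 with the trend term, where 5 fell, and -0.11 with the resequenced runs, where 2 fell. Krt1 and Krt10, the keratins of the spinous layer of epidermis, differed by -0.37 and -0.12, and the late envelope genes Lor and Flg by 0.50 and 0.46, with no call.

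Further falls came from genes of several functions. Ildr2, a membrane protein of tricellular junctions and lipid metabolism, was at 66.8, 51.1 and 62.7 CPM on day 14 and at 19.3, 22.7 and 20.0 CPM on day 28 and fell by 1.54 ± 0.25. Ptprz1, a receptor tyrosine phosphatase, fell by 1.26 ± 0.17 from 83.1, 59.6 and 78.5 CPM to 30.5, 35.0 and 27.0 CPM. In both genes replicate 2 of day 14 was the lowest of its day and still above every day 28 library. Slc6a14, a broad amino acid transporter, fell by 1.47 ± 0.24, and Aoc1, a diamine oxidase, fell by 1.05 ± 0.19. Aldh1a1, a retinaldehyde dehydrogenase, fell by 0.98 ± 0.15 from 105, 83.1 and 97.1 CPM to 45.3, 54.5 and 45.3 CPM. Lgi2, Skint3 and Cwh43 fell by 1.24 ± 0.23, 1.17 ± 0.20 and 1.14 ± 0.13, and Skint3 belongs to a family of close copies. Il1a, which encodes the alarmin interleukin-1 alpha, fell by 1.41 ± 0.29 from 2.69 to 3.62 CPM on day 14 to 0.98 to 1.62 CPM on day 28, and it was the 1 call among 24 cytokines and chemokines. In the fit with the resequenced runs Il1a had an adjusted p of 0.06 (0.00674 with the trend term added), and the other genes of this paragraph were called.

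Other large rises came from genes of several functions. Fcgbp, a mucus protein, rose by 2.21 ± 0.44 (adjusted p = 0.0206) from 0.75, 1.79 and 1.05 CPM to 7.48, 2.93 and 5.98 CPM. Padi2, a peptidylarginine deiminase, rose by 1.46 ± 0.18 and Sardh, the mitochondrial sarcosine dehydrogenase, by 1.38 ± 0.20. Alpl, the tissue-nonspecific alkaline phosphatase, rose by 1.31 ± 0.19 from 2.48, 3.45 and 2.80 CPM to 8.41, 5.10 and 7.98 CPM, while on day 0 it was at 244 to 298 CPM. Gprin3, Lrrc75b, Syne4 and Wfdc3 rose by 1.26 ± 0.27, 1.24 ± 0.12, 1.23 ± 0.25 and 1.23 ± 0.20. Among these 8 genes Fcgbp, Sardh and Syne4 were not called with the resequenced runs (adjusted p = 0.0578, 0.0676 and 0.281), but with the trend term added they were (0.0153, 0.0016 and 0.0115).

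Hypoxia and glycolysis genes held 3 falls and no rise among 24 tested, with a median of -0.16 that was -0.24 with the trend term and -0.25 with the resequenced runs. Pgk1, a glycolytic kinase, was at 338, 278 and 319 CPM on day 14 and at 219, 233 and 200 CPM on day 28, and fell by 0.52 ± 0.11. Ero1l, the endoplasmic reticulum oxidase induced by HIF, fell by 0.62 ± 0.14, and Pdk1, the kinase that holds back pyruvate dehydrogenase, fell by 0.41 ± 0.08. All 3 lay well above their day 0 levels (Pgk1 at 76.2 to 80.7 CPM) on both days, and none was called with the resequenced runs (adjusted p = 0.217, 0.218 and 0.102 for Pgk1, Ero1l and Pdk1), while with the trend term added Ero1l and Pdk1 were (0.00527 and 0.0121) and Pgk1 was not (0.081). Vegfa, the HIF target that drives vessel growth, differed by -0.04 ± 0.14. The 9 tested mitochondrially encoded messenger RNAs were all lower on day 28 (median -0.44), none passed the test, and the median was -0.28 with the trend term. mt-Nd2 was at 4289, 2900 and 4189 CPM on day 14 and at 2297, 3075 and 2318 CPM on day 28, so that its values followed the GC trend of the libraries and overlapped between days.

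The study asked how mammary epithelia respond to DNA damage under an oncogene, and the lists closest to that question held no call between these days in the 18-library fit. Among 36 break repair and checkpoint genes the median was -0.12 and 7 were above 0, against 9747 of 18684 genes tested, and the median was -0.04 with the trend term and -0.05 with the resequenced runs. Mre11a was at 56.5, 48.9 and 57.8 CPM on day 14 and at 45.1, 52.5 and 43.3 CPM on day 28 (-0.21 ± 0.10, adjusted p = 0.506). None of 30 p53 targets was called (median -0.08), and Perp, a desmosomal p53 target, had a change of -0.40 ± 0.10 with an adjusted p of 0.0611, and of 0.0352 with the trend term. The cell cycle inhibitor gene Cdkn1a was at 158 to 209 CPM on day 14 and 147 to 170 CPM on day 28. The 30 G2 and mitosis genes and the 32 S phase genes had medians of -0.07 and -0.08 with no call, and the proliferation marker Mki67 differed by -0.07 ± 0.17.

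Interferon-linked lists were likewise without a call. The 56 tested interferon-stimulated genes had a median of 0.18 and 44 of them were above 0, against 9747 of 18684 genes tested. Isg15, a ubiquitin-like antiviral protein, was at 16.2, 22.6 and 23.1 CPM on day 14 and at 44.5, 23.9 and 26.7 CPM on day 28, with replicate 1 of day 28 apart from the others, and Ifit3 was at 0.64, 0.57 and 1.71 CPM and at 1.86, 1.97 and 0.87 CPM. Oasl1 had the smallest p of the list (1.08 ± 0.28, adjusted p = 0.103). The 8 tested genes of the Ifi200 family, whose products bind DNA and whose reads can be shared among close copies, had a median of -0.25, which was -0.12 with the trend term, -0.11 with the resequenced runs and 0.22 in the pair of these runs. The 13 nucleic acid sensing genes had a median of 0.10 (0.04 with the trend term, 0.00 with the resequenced runs), and the 16 MHC class I and peptide loading genes one of 0.29, which was 0.09 with the trend term. In the 18-library fit no call was made in the lists of collagen and matrix genes (24 tested), cholesterol synthesis (22), Wnt pathway (16) or milk and secretory genes (11), and the 20 genes of the unfolded protein and integrated stress response gave Atf3 alone. With the trend term 1 Wnt pathway gene was called lower, Notum, which encodes an inhibitor of Wnt proteins, with -1.43 (adjusted p = 0.00811), beside -0.98 in the 18-library fit and an adjusted p of 0.293 with the resequenced runs.

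Markers of other cell types gave no call in the 18-library fit, and their part in the results above was not tested. Of 9 tested fibroblast markers all were higher on day 28 (median 0.79). Pdgfra was at 10.6, 8.90 and 11.7 CPM on day 14 and at 17.6, 19.4 and 17.0 CPM on day 28 (0.79 ± 0.21, adjusted p = 0.115), and the collagen gene Col1a2 was at 1.72, 2.36 and 1.88 CPM and at 5.27, 3.48 and 4.52 CPM (1.16 ± 0.35). Col1a1 differed by 1.11, the proteoglycan gene Dcn by 0.38, and Col3a1, with 0.51 CPM at most, by 3.82. With the offset for GC content Pdgfra and Dcn were called higher (adjusted p = 0.035 and 0.0325). Of the other members, Lum, Dpt and Thy1 stayed at or below 0.16 CPM in all 6 libraries. The summed level of the fibroblast list was 1203 to 2456 CPM on day 14 and 1901 to 2565 CPM on day 28, nearly all of it Postn. Of 7 tested macrophage and lymphocyte markers 6 were above 0 (median 0.16), and the list's sum was 29.1 to 30.1 CPM on day 14 and 30.4 to 36.9 CPM on day 28. In the resequenced runs the sum was 22.61 and 23.15 CPM. Its largest part was Cd163, at 21.6 to 24.8 CPM in the 6 originals and 19.52 and 20.35 CPM in the resequenced runs. Lyz2 was at 4.51 to 8.77 CPM in the 6 originals but at 0.04 and 0.02 CPM in the resequenced runs. The 7 tested lung epithelial markers had a median of 0.53, with sums of 10.9 to 11.9 CPM on day 14 and 13.0 to 20.3 CPM on day 28, and 4.93 and 4.62 CPM in the resequenced runs. Sftpc, the surfactant protein gene of alveolar lung cells, was at 4.22 to 10.5 CPM in the originals and at 0.18 CPM in both resequenced runs. The levels of Lyz2 and Sftpc thus depended on the sequencing run, and whether these reads came from the organoids was not tested. The sums of both lists carry that limit for the part made up of such genes.

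The same days were also set against each other in ATLD organoids, to ask whether the WT change differed with the genotype. There 3232 of 18684 genes were called (17.3%). Of the 169 WT genes 85 were also called in ATLD organoids, which is 50.3% of the WT calls and 2.63% of the ATLD calls, 63 in the same direction and 22 in the opposite one. The change itself differed between genotypes for 1001 genes (5.36%), and 76 of these were among the 169. The WT change is part of this difference, so genes called in WT are favoured in that count. Fos fell by 1.75 ± 0.19 in ATLD organoids and rose by 0.93 ± 0.18 in WT, and Egr2 fell by 1.31 ± 0.13 there and rose by 1.01 ± 0.13 in WT. Acta2 likewise fell by 0.54 ± 0.14 in ATLD organoids (adjusted p = 0.0151). By contrast Oxtr rose in both genotypes (0.57 ± 0.10 in ATLD organoids), and the fall of Ptprz1 was 0.87 ± 0.17 in ATLD organoids, with no call for the difference (adjusted p = 0.732 and 0.435). The difference used 6 libraries of each genotype. In ATLD replicates 1 to 3 the GC slopes were -0.01, 0.13 and 0.12 at day 14 and 0.38, 0.16 and 0.25 at day 28. The trend term marks only WT libraries and does not allow for these slopes.

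**Figure D5:**
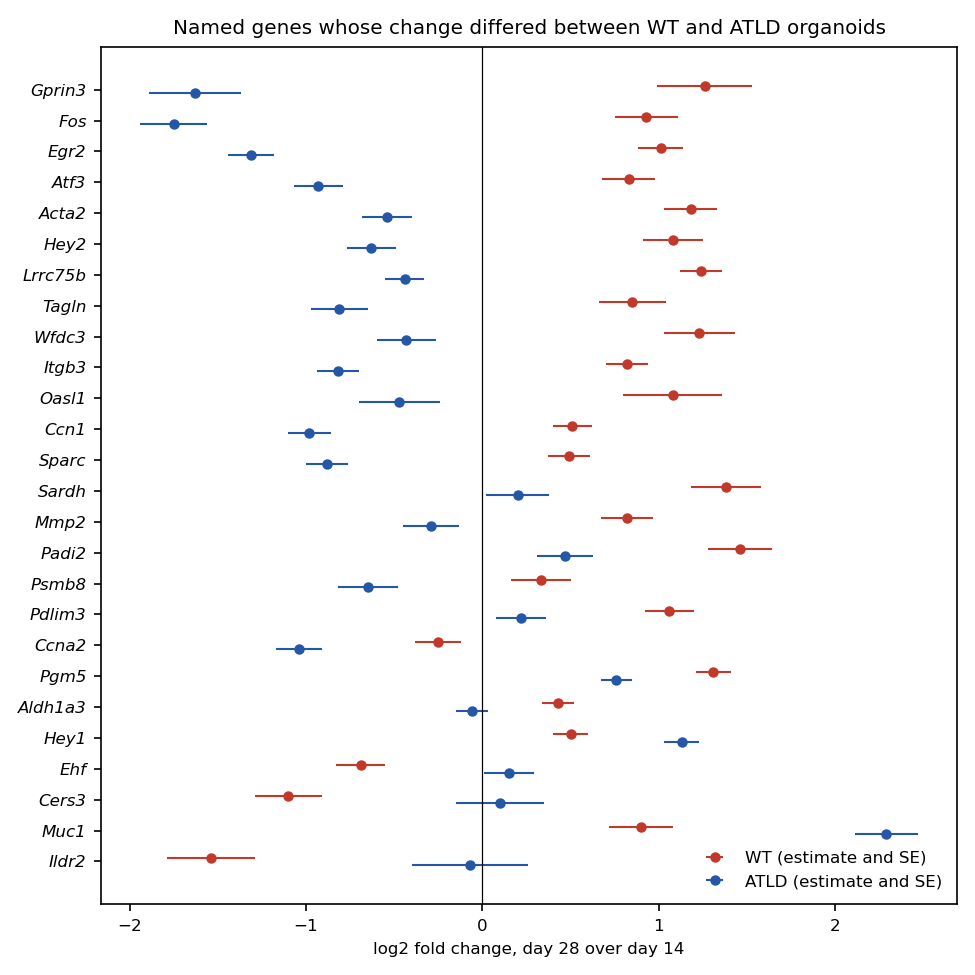
Log2 fold change from day 14 to day 28 (x axis) with its SE in WT (red) and ATLD organoids (blue), for those 26 of the 72 genes named by rule (y axis) whose change differed between the genotypes. Gprin3, Fos, Egr2, Atf3 and Itgb3 lie above 0 in WT and below 0 in ATLD organoids, whereas Padi2, Pgm5, Hey1 and Muc1 lie above 0 in both.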

How the data were processed

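RNA from 21 libraries was compared as raw counts per gene, which the authors deposited as 1 table, made with featureCounts on mm10 per the submitters' processing notes. The strand setting of the counting is not given in these sources. All 55536 gene IDs matched GENCODE vM21. Reads were compared with edgeR 4.0.16 in R 4.3.3 (filterByExpr with a minimum count of 10, TMM scaling, quasi-likelihood test, two-sided, Benjamini-Hochberg adjusted p under 0.05) over 18 original libraries in 6 groups, contrast day 28 minus day 14 in WT. The SE of a log2 change is its size divided by the root of its F statistic. The resequenced runs entered only the alternatives, since each repeats a culture already fitted. DESeq2 1.42.0 served as another alternative. The test of the difference between genotypes was added after the data were seen. Scripts were tested on simulated data.

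The members and gene lists were chosen with earlier results of these data known. Named genes were Mre11a and Erbb2, the 12 largest rises and 12 largest falls among called protein-coding genes whose mean log2 CPM reached 1, whose days did not overlap (leaving out predicted genes and clones), up to 4 called members of each list (or the one with the smallest p), and the most abundant marker of each other cell type. Further genes were named after their values were seen, among them Oxtr, Zfp36 and Dusp1, the keratins, Egr1, Junb, Kit, Ltf, Lcn2, Isg15, Ifit3, Cdkn1a, Vegfa, Mki67 and those under the other observations.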

Additional observations from a re-analysis of the deposited data

Results flagged for a closer look

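For 26 of the 72 genes named by rule the change from day 14 to day 28 differed between WT and ATLD organoids (edgeR interaction of genotype and day, adjusted p under 0.05 over all genes, 6 libraries of each genotype). Each value below is the WT change minus the ATLD change on the log2 scale. All 26 were also called with the GC trend term, 21 were above 0 and 5 below. That term marks only WT libraries, so it does not allow for differences in GC slope between the ATLD libraries. Over all genes tested, 1001 of 18684 differed (5.36%). Of the 72 genes, 46 were called in WT in the same fit, and the naming rule favours such calls. The WT change is part of the difference, so the count among the 72 cannot be set against that share. The interaction was chosen after the data were seen, and the cause of these differences was not tested.

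Of the immediate early and stress genes, Fos differed by 2.68 ± 0.26 (SE, adjusted p = 1.72e-05), Egr2 by 2.32 ± 0.18 and Atf3 by 1.75 ± 0.21. All 3 rose in WT and fell in ATLD organoids. Gprin3, a G protein-regulated inducer of neurite outgrowth, had a difference of 2.89 ± 0.38, from 1.26 in WT and -1.63 in ATLD organoids.

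Of the contractile genes Acta2 differed by 1.71 ± 0.20, Tagln by 1.66 ± 0.25 and Pdlim3 by 0.85 ± 0.20. The matrix gene Sparc differed by 1.37, the matricellular gene Ccn1 by 1.49 and the gelatinase gene Mmp2 by 1.12. Sparc had no call in WT (0.49) and fell by 0.88 in ATLD organoids.

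Among luminal genes Itgb3 differed by 1.65 and Aldh1a3 by 0.50. Muc1 rose in both genotypes and more in ATLD organoids, with a difference of -1.39, and the difference of Hey1 was -0.63, again with the larger rise in ATLD organoids. The related Notch target Hey2 went the other way, with 1.71. The ETS factor Ehf differed by -0.84.

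Of the further rises and falls, Lrrc75b differed by 1.68, Wfdc3 by 1.66, Sardh by 1.18, Padi2 by 0.99 and Pgm5 by 0.55. The difference of Ildr2 was -1.47 and that of Cers3 was -1.19, and both genes were close to unchanged in value in ATLD organoids (-0.07 and 0.10). Oasl1, Psmb8 and Ccna2 had no call in WT and differed by 1.55, 0.98 and 0.79. Psmb8, an immunoproteasome subunit, fell by 0.65 and Ccna2, the S and G2 phase cyclin, fell by 1.04 in ATLD organoids.

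Of the genes looked at after their values were seen, 19 also differed, 15 above 0 and 4 below, and all 19 were called with the trend term. They were chosen with these values known, so the count is no measure of how common such differences are. Of the immediate early genes Fosb differed by 3.75 (adjusted p = 0.00164), Egr1 by 1.37, Dusp1 by 1.26 and Zfp36 by 0.99. The difference was 4.11 for Penk, which was low in every library, 2.92 for Slc5a5, 1.53 for Bgn, 1.34 for the myosin light chain gene Myl9, 1.10 for Rasgef1c, 1.0 for Gucy1a1, 0.95 for Cxcl12, 0.86 for Igfbp3 and 0.67 for Gucy1b1. Isg15 differed by 1.39 and Mki67 by 0.96, with no call in WT. The differences below 0 were -2.23 for Ltf, -2.12 for the cornified envelope gene Sprr1a, -1.30 for the casein gene Csn3 and -0.54 for Klf5. Fosb, Egr1, Myl9, Ltf, Sprr1a and Csn3 had no call in WT either. The changes of Ltf, Csn3 and Egr1 were 2.18, 1.63 and -1.18 in ATLD organoids, beside -0.05, 0.33 and 0.19 in WT.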

How the results depend on the processing

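No named call changed direction in any of the 20 other settings. The 169 calls became 312 with DESeq2, 305 with an offset for GC content, 361 with an offset for GC content and length, 102 with the 9 original WT libraries alone, and 0 with the 6 compared libraries alone (1114 at an unadjusted p under 0.05), where 4 residual degrees of freedom remain. The resequenced runs in place of WT replicate 1 gave 94 calls, and 245 with the trend term added. Leaving out libraries moved the count between 15 and 3817. Dropping replicate 1, 2 or 3 of day 14 gave 72, 3817 and 80 calls, and dropping replicate 1, 2 or 3 of day 28 gave 62, 217 (4305 at an unadjusted p under 0.05) and 67, while dropping replicate 1 of both days gave 15. Once replicate 2 of day 14 is dropped, both remaining libraries of that day carry the low-GC trend. Of the 46 named calls 45 were kept with the trend term, 29 with the resequenced runs, 44 with these runs and the trend term, 46 with DESeq2, 23 with the 9 WT libraries alone and 0 with the 6 alone. Dropping replicate 1 or 3 of day 14 kept 28 each, dropping replicate 1 or 3 of day 28 kept 24 and 26, and dropping replicate 1 of both days kept 6. Genes whose change differed between WT and ATLD numbered 1001, and 2054 with the trend term, an alternative added after the data were seen.

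Correlations of the deviations of same-numbered libraries over 11967 genes were -0.838, -0.955 and -0.855. The sign of all 9 correlations across the days follows which libraries carry the low-GC trend, so they do not show whether the numbers pair, and the libraries share only a number. With the replicate block 98 genes were called, all among the 169, and 31 of the 46 named calls were kept. With the replicate block and the GC offset 208 were called.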

Other observations

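The genes below were chosen after their values were seen, and their changes are from the same edgeR fit. Among the called genes were 3 known from ion-transporting and acid-secreting epithelial cells. Foxi1, the forkhead factor of such cells, rose by 1.03 ± 0.11 (SE, adjusted p = 0.000195) from 10.1, 9.01 and 11.4 CPM to 22.7, 19.7 and 20.1 CPM. Atp6v1b1, a subunit of the vacuolar proton pump, rose by 1.04 ± 0.13 from 46.1, 58.2 and 47.1 CPM to 121, 81.6 and 109 CPM, and Clic6, of the chloride intracellular channel family, rose by 0.97 ± 0.12. All 3 stayed under their day 0 levels (Foxi1 at 130 to 135 CPM), were called in all 3 fits, and also rose in ATLD organoids (Foxi1 by 1.14, Atp6v1b1 by 0.77, Clic6 by 1.53). The iodide transporter gene Slc5a5, used in lactating mammary gland, rose by 1.65 ± 0.31 from 0.61, 1.06 and 0.72 CPM to 3.04, 1.56 and 2.77 CPM.

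Beside Stra6 and Aldh1a1, other called genes whose products act on retinoids were Rbp2, Rdh10 and Aldh1a7. The retinol-binding protein gene Rbp2 fell by 2.08 ± 0.39, the retinol dehydrogenase gene Rdh10 by 0.59 ± 0.10 and Aldh1a7, a close copy of Aldh1a1 with which it may share reads, by 0.64 ± 0.13. Rdh10 was at 130, 101 and 126 CPM on day 14 and at 77.0, 86.7 and 73.4 CPM on day 28. Rbp2 was low throughout, with 0.46 to 1.09 CPM on day 14 and 0.16 to 0.19 CPM on day 28. The retinaldehyde dehydrogenase Aldh1a3 went the other way, as given above.

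Cxcl12, the ligand of Cxcr4, rose by 1.19 ± 0.12 from 2.75, 2.24 and 3.05 CPM to 6.25, 5.84 and 6.31 CPM, and Igfbp3, a carrier of insulin-like growth factors, rose by 0.85 ± 0.09 from 186, 173 and 192 CPM to 336, 326 and 328 CPM. The proteoglycan gene Bgn rose by 1.06 ± 0.16 and Ccn5 by 1.93 ± 0.25. Gucy1a1 and Gucy1b1, the partner subunits of the nitric oxide receptor guanylate cyclase, rose by 0.84 ± 0.12 and 0.74 ± 0.12. Penk, which encodes proenkephalin, rose by 3.34 ± 0.36 from 0.07 to 0.09 CPM to 0.58 to 1.16 CPM. Klf5, a factor of proliferating epithelium, fell by 0.57 ± 0.09, with 93.3 to 99.3 CPM on day 14 and 64.8 to 65.7 CPM on day 28, and the desmosomal cadherin gene Dsg4 fell by 1.95 ± 0.31.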
